A study of Mus musculus with 18 samples.

Results

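The clustered histone genes of the mouse were examined in bulk RNA-Seq of embryonic lungs. They were taken as every row of the deposited tables whose gene symbol begins with Hist1h, Hist2h, Hist3h or Hist4h, the symbols of the 4 histone gene clusters. This rule found 68 genes among the 23420 rows of each of the 3 tables. The rule also named the fall of Hist1h2ai in the Vangl1/2 mutants, so these genes were partly selected on measured values of that contrast. All of their values in the Vangl1/2 libraries are therefore a description, with no test. A gene passed the filter where 3 or more of the 6 libraries of a table had 10 or more normalized counts, and 24 of the 68 passed in the Vangl1/2 table, 15 in the Dermo1Cre table and 17 in the Sox9Cre table.

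Each table compared whole lungs of 3 mutant and 3 control libraries. In the Vangl1/2 table the lungs were collected at E12.5, the controls were Vangl1-/- and the mutants Vangl1-/-; Vangl2-/-, so both groups are Vangl1-/- by label (a gene-trap allele), and the Vangl2 null allele came from a floxed allele recombined in the whole embryo by Sox2-Cre. Vangl1 and Vangl2 encode membrane proteins of planar cell polarity. In the Dermo1Cre table (E12.5) Wnt5af/+; Dermo1Cre controls were compared with Wnt5af/f; Dermo1Cre mutants, and in the Sox9Cre table (E13.5) Wnt5af/+; Sox9Cre controls were compared with Wnt5af/f; Sox9Cre mutants. Dermo1Cre is active in lung mesenchyme and Sox9Cre in lung epithelium, all libraries of these 2 tables carried the Cre, and their controls carried 1 floxed copy of Wnt5a, which encodes a secreted ligand. How many embryos went into a library is not given in the sources used here, so the spread between libraries may be partly technical.

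Most clustered histone genes are replication-dependent. They supply the bulk of the H1, H2A, H2B, H3 and H4 protein that packs new DNA, and their transcripts rise in S phase. Their mRNAs as a rule have no introns and end in a short conserved stem-loop in place of a poly(A) tail, whereas the variant histone genes outside the clusters, such as H2afz and H3f3a, give polyadenylated mRNAs throughout the cell cycle. Some clustered genes also give polyadenylated transcripts that run past the stem-loop. Whether the libraries were made from polyadenylated RNA is not given in the sources used here.

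The stem-loop is shown first because it sets apart the 2 kinds of transcript end among these genes. It was searched for on the transcript's own strand as a 6-base stem starting with GG and ending with T, a loop of any 4 bases and the complementary 6 bases. A GENCODE transcript model on GRCm38 held it in 46 of the 68 genes (67.6%), against 1.27% of all 55341 annotated genes. The commonest core sequence was found in 26 of the 46, in H1, H2A, H2B and H3 genes, and 7 H4 genes shared another. Examples follow with 5 flanking bases on each side, the stem in capitals and the loop in lower case.
Hist1h2ag: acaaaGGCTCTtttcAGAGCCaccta
Hist3h2a: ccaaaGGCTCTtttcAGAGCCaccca
Hist1h1c: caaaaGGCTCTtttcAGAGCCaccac
Hist1h3c: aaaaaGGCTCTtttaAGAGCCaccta
Hist1h4d: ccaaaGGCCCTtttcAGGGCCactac
Hist1h4i: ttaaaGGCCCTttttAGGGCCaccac
Hist1h4b: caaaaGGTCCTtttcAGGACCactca
The model ended within 200 bases of the stem-loop in 28 genes, as in Hist1h2ag, and ran on further in 18, among them Hist3h2a, Hist1h1c and Hist1h4i. No stem-loop was found in the models of the other 22, of which 11 are annotated as coding sequence alone, so that these models hold no 3′ end to search. Hist1h2ai is one of those 11.

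Hist1h2ai encodes an H2A protein and lies at chr13:21716422-21716814 on the plus strand, a single exon of 393 bases that overlaps the annotated gene Gm44367. Its coding sequence was 98.73% identical to those of Hist1h2ad and Hist1h2ag. The first 60 coding bases of the 3 genes are shown because they hold 3 of the 6 positions by which reads of these copies can be told apart, given in capitals.
Hist1h2ai: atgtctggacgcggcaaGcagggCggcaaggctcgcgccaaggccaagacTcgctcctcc
Hist1h2ad: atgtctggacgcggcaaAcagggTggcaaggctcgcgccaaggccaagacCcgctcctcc
Hist1h2ag: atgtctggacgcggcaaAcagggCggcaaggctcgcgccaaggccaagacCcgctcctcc
Counted from the first base of the start codon, with the base of Hist1h2ai first, Hist1h2ad differed by G18A, C24T, T51C, G390A and G392A. Hist1h2ag differed by G18A, T51C, G150C, G390A and G392A. Only 9.88% of the 50-base stretches of the Hist1h2ai model were absent from the transcripts of all genes that do not overlap it. The same share was 32.9% for Hist1h2ad, 21.1% for Hist1h2ag and 9.27% for Hist1h2ah. Annotated genes that overlap a gene, such as Gm44367, were left out of this search. In 31 of the 68 genes, most of the 50-base stretches were shared with genes elsewhere. How reads that match several copies were counted is not given in the sources used here, so the values of single copies are uncertain, above all among the H2A genes. Because the strand setting of the counting is not given either, reads of Hist1h2ai and of Gm44367 cannot be told apart.

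The stretches before the starts of Hist1h2ai and Hist1h2ag are shown because these near-identical coding sequences moved in opposite directions in the Vangl1/2 libraries. Both are from RefSeq on GRCm38.p6, 5′ to 3′ on the strand of the gene, at chr13:21716162-21716411 and chr13:22042950-22043199, with CCAAT and its reverse complement in capitals, and TATAA likewise.
Hist1h2ai: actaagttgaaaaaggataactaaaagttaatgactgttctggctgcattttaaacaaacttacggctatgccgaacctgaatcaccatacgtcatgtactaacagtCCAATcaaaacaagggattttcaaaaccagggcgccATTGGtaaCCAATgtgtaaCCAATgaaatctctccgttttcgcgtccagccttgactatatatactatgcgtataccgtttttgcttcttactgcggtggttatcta
Hist1h2ag: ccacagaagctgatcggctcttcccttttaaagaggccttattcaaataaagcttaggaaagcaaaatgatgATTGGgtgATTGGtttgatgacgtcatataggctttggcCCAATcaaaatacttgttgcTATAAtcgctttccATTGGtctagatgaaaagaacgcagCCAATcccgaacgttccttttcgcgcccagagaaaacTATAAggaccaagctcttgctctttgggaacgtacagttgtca
Hist1h2ai had 4 CCAAT matches and no TATAA, and Hist1h2ag had 5 CCAAT matches and 2 TATAA matches. All 68 genes matched a RefSeq gene by symbol or synonym, and 61 had an entry. Among their 62 sequences of 250 bases, on either strand, CCAAT was present in 82.3% (33.9% of all 32851), TATAA in 64.5% (22.8% of all) and the octamer ATTTGCAT in 22.6% (1.6% of all). Hist1h2ai and its neighbour Hist1h2bl, an H2B gene, are transcribed away from each other with 278 bases between their models, 1 of 13 such pairs less than 500 bases apart. The Vangl1/2 controls had a mean of 94.0 normalized counts for Hist1h2ai and 7.54 for Hist1h2bl, and in the mutants 11.9 and 4.63.

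Libraries held between 19066208 and 19814346 reads on genes in the Vangl1/2 table, 15945393 to 16102180 in the Dermo1Cre table and 16198295 to 16318036 in the Sox9Cre table. Vangl2 had 277, 406 and 334 normalized counts in the Vangl1-/- controls and 86.5, 79.8 and 89.6 in the mutants. Vangl1 was still counted in both groups, at 162, 219 and 113 in controls and 239, 274 and 242 in mutants, so its transcript was not absent from the Vangl1-/- lungs and every mutant lay above every control (log2 fold change 0.65, standard error 0.23). In the other tables, which were normalized separately, it had 409 to 508. Wnt5a overlapped between groups in both other tables, at 472, 430 and 489 against 317, 436 and 230 for Dermo1Cre and at 473, 453 and 426 against 442, 362 and 448 for Sox9Cre. Vangl1/2 control replicate 2 stood apart from the other controls and lay with the mutants along the main axis of variation (51.7% of the variance). Across genes, the deviation from the table's mean ran with transcript length, at a Spearman rho of -0.64 and -0.59 in Vangl1/2 control replicates 1 and 3 and of 0.36 in control replicate 2, against 0.45 to 0.57 in the mutants. For some of the named Vangl1/2 genes, not always those that moved most, the fold change without 1 library is also given.

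The clustered histone genes made up a small part of the libraries, 49.8 to 77.4 reads per 1000000 reads on genes. Their summed normalized counts lay between 945 and 1359 in the 18 libraries, whereas 15 replication-independent variants outside the clusters summed to 52180 to 96170, that is 45.3 to 72.2 times as much. The 5 genes with the highest counts held 51.0% of the sum in the Vangl1/2 table, 59.4% in the Dermo1Cre table and 53.9% in the Sox9Cre table. Hist3h2a and Hist1h1c were the highest by count in every table. In all 18 libraries, 6 genes, Hist1h2aa, Hist1h2ap, Hist1h2ba, Hist1h2bq, Hist1h2br and Hist2h2aa1, were listed at 0, and 15 genes passed the filter in all 3 tables. The gene just inside the filter in the Vangl1/2 table was Hist1h3g, with 10.3 in the third of its libraries in order of level, and the gene just outside was Hist1h1d with 9.46.

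The H2A genes carried most of the difference between groups in the Vangl1/2 libraries. Their sum over 18 genes was 604, 422 and 487 in controls and 322, 337 and 359 in mutants, a log2 ratio of the means of -0.57, and the groups did not overlap. Hist1h2ai gave much of this, and without it the H2A sum was still 422, 384 and 425 against 311, 320 and 352. The H3 sum was 191, 103 and 183 in controls and 111, 133 and 122 in mutants, with control replicate 2 at the level of the mutants. The H1 sum (177, 138 and 207 against 164, 149 and 177), the H2B sum (295, 272 and 344 against 256, 311 and 287) and the H4 sum (91.9, 85.7 and 111 against 107, 101 and 91.6) overlapped. Over all 68 genes the sum was 1359, 1021 and 1332 in controls and 959, 1032 and 1037 in mutants, a log2 ratio of -0.29, and only control replicates 1 and 3 lay above the mutants. In bulk samples, fewer cells of a type and less RNA per cell cannot be told apart.

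**Figure D1:**
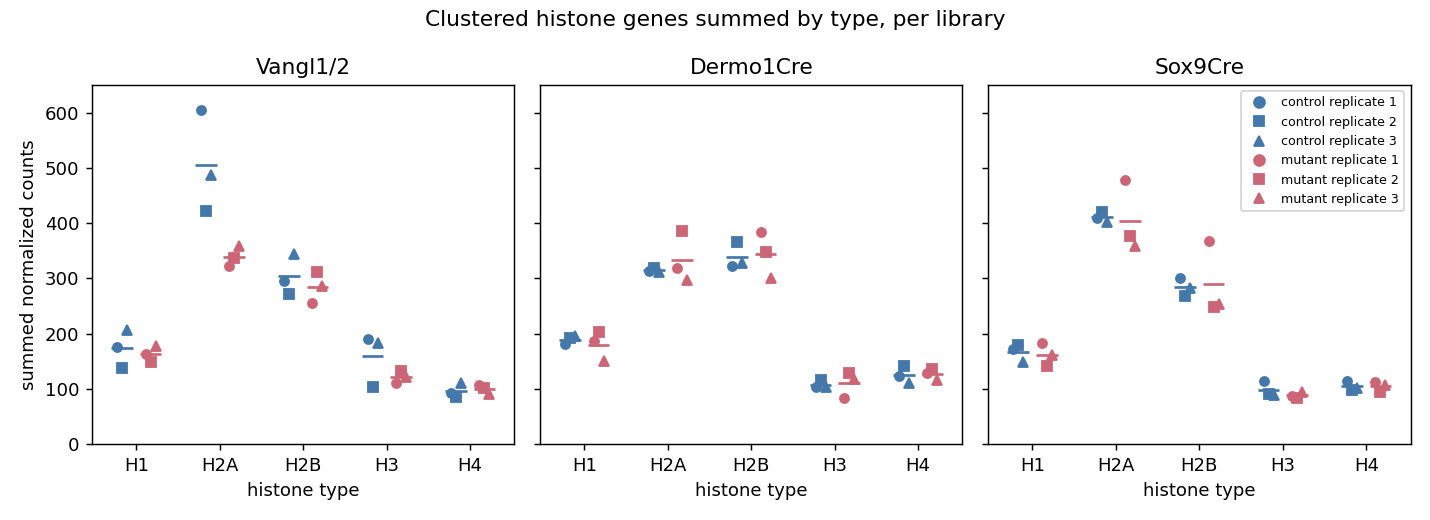
Summed normalized counts of the clustered histone genes by histone type (x axis) in each library of the 3 tables; points are libraries, with a shape per replicate number, and short lines are group means. In the Vangl1/2 panel the 3 control H2A sums, 422 to 604, lie above the 3 mutant sums, 322 to 359, and in the other panels the groups overlap for every type.

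Hist1h2ai had 182, 38.2 and 62.0 normalized counts in the Vangl1-/- controls and 11.1, 16.8 and 7.88 in the mutants (mean 94.0 ± 76.9 against 11.9 ± 4.49, SD, n = 3). Every control lay above every mutant, but the SD of the controls was close to the difference of the means, with control replicate 1 far above the other two. The log2 fold change on the log2(value + 1) scale was -2.63 with a standard error of 0.55. It was -3.11 without control replicate 2 and -2.004 without control replicate 1. Per kilobase of model it had 463, 97.2 and 158 normalized counts in the controls, the highest of the 68 genes in control replicates 1 and 3 but below Hist1h2ah (140) and Hist3h2a (102) in control replicate 2. In the mutants it had a mean of 30.3 per kilobase, below Hist3h2a at 91.0. This order depends on the model lengths, 393 bases for Hist1h2ai and 2146 for Hist3h2a, which may differ from those used in counting. In normalized counts, the values are as follows. In the other tables it was low in both groups, with 10.02, 9.03 and 7.93 in the Dermo1Cre controls, 7.06, 3.97 and 3.99 in the Dermo1Cre mutants, 9.91, 1.99 and 10.97 in the Sox9Cre controls and 11.7, 11.1 and 4.10 in the Sox9Cre mutants. The Vangl1/2 controls thus held the high values, and the Vangl1/2 mutants were near the level seen in the libraries of the other tables, which were normalized separately.

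Hist1h2ah and Hist1h2ad, other H2A copies, came next. Hist1h2ad had 29.95, 22.4 and 29.4 normalized counts in controls and 10.1, 6.90 and 12.8 in mutants, with a tight spread in both groups (log2 fold change -1.40, standard error 0.32, and -1.53 without control replicate 2). Hist1h2ah had 21.7, 56.8 and 15.8 in controls and 12.1, 5.91 and 11.8 in mutants, and its highest value was in control replicate 2 (-1.42, standard error 0.51, and -0.89 without that library). Hist1h2ai and Hist1h2ah therefore differed in which control was highest. Hist1h2ag went the other way, with 25.8, 30.8 and 22.1 in controls and 41.3, 45.3 and 35.5 in mutants, and no control reached the lowest mutant (0.62, standard error 0.23, and 0.74 without control replicate 2). Hist3h2a, the H2A gene of the small cluster on chromosome 11, had 248.9, 218 and 257 in controls and 172, 197 and 217 in mutants (-0.31, standard error 0.14, and -0.38 without control replicate 2), groups that lay next to each other with a gap of about 1 count between control replicate 2 and mutant replicate 3. Hist1h2ae, Hist1h2ac and Hist1h2ak overlapped between groups, and the fold change of Hist1h2ak, -0.44, was -0.97 without control replicate 2 and -0.07 without control replicate 3.

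**Figure D2:**
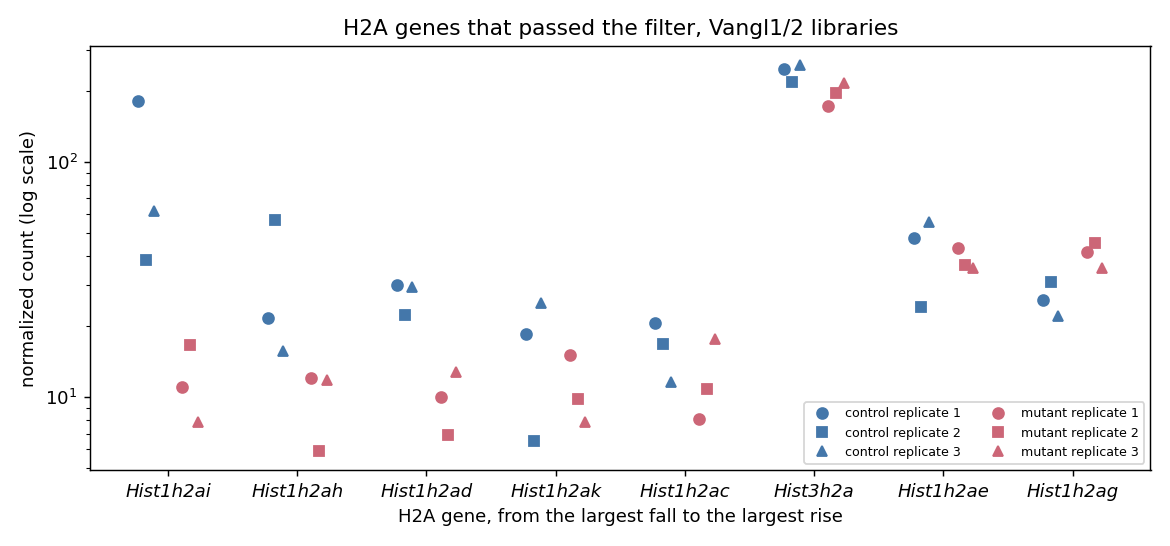
Normalized counts (log scale) of the 8 H2A genes that passed the filter in the Vangl1/2 table, ordered by fold change; points are libraries, blue for controls and red for mutants. Hist1h2ai, Hist1h2ah, Hist1h2ad and Hist3h2a have all mutants below all controls, and Hist1h2ag has all mutants above.

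Among the other types, Hist1h4i, an H4 gene, was higher in the Vangl1/2 mutants, at 59.4, 61.1 and 57.1 normalized counts against 42.3, 47.5 and 44.1 in controls (log2 fold change 0.40, standard error 0.18, and 0.44 without control replicate 2). The spread within each of its groups was small and the groups did not overlap. Hist1h2bj, an H2B gene paired with Hist1h2ag at 269 bases, had the largest positive fold change at 0.95 (standard error 0.52), but its values of 5.16, 12.1 and 3.15 against 15.1, 15.8 and 7.88 overlapped, and the fold change was 1.40 without control replicate 2 and 0.57 without control replicate 3. The linker histone gene Hist1h1c had 134, 114 and 163 in controls and 130, 114 and 135 in mutants (-0.10, standard error 0.17). Hist1h1e had 16.5, 8.39 and 21.0 against 16.1, 11.8 and 6.89 (-0.36), with a fold change of -0.71 without control replicate 2 and -0.05 without mutant replicate 3. The core H2B genes Hist1h2bc (82.6, 76.4 and 111 against 83.5, 101 and 74.8) and Hist2h2be (77.5, 78.3 and 84.1 against 58.4, 81.8 and 87.6) overlapped. So did the H3 genes Hist1h3c (59.9, 45.7 and 69.4 against 57.4, 54.2 and 55.1) and Hist1h3e (19.6, 10.3 and 19.97 against 8.05, 20.7 and 16.7), and the H4 gene Hist1h4d (21.7, 14.0 and 26.3 against 17.1, 15.8 and 13.8). The 10 remaining genes that passed had log2 fold changes between -1.06 and -0.04. Over the omission of each library in turn, 9 of the 24 genes changed sign at least once, among them Hist1h1c, Hist1h2bc, Hist2h2be, Hist1h3c and Hist1h3e. A gene whose groups did not overlap cannot change sign when 1 library is left out, so nothing is read from those genes here.

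The fold change was negative in 21 of the 24 genes that passed, with a median of -0.28, against 51.2% of all 14303 genes tested, whose median was -0.01. All mutants were below all controls in 6 of the 24 (Hist1h2ad, Hist1h2ah, Hist1h2ai, Hist1h2bk, Hist1h3g and Hist3h2a), where the share over all genes tested was 8.68%. All mutants were above all controls in 2 (Hist1h2ag and Hist1h4i), where it was 13.6%. Nothing is read from these counts because this contrast entered the choice of the genes. In addition, Hist1h2bk and Hist1h3g passed the filter through the controls alone and so had to be lower in mutants.

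In the Vangl1/2 table control replicates 1 and 3, which lay apart along the length trend, also had the highest sums of the clustered histone genes other than Hist1h2ai. Whether transcript length was a cause of this was not tested. Without Hist1h2ai the sum of 67 genes was 1177 and 1270 in control replicates 1 and 3, and 983 in control replicate 2, against 948 to 1029 in the mutants. Within the mutants the sum did not follow the trend, with 948, 1015 and 1029 at a rho of 0.51, 0.45 and 0.57 in replicates 1, 2 and 3. In the Dermo1Cre table the libraries at both ends of the length trend, control replicate 2 (rho -0.23) and mutant replicate 1 (0.30), had sums of 1125 and 1094. In the Sox9Cre table the ends were mutant replicate 1 (-0.39, with a sum of 1217) and mutant replicate 3 (0.35, with 972), both in 1 group. Across all genes with a known length, the Vangl1/2 log2 fold change rose with transcript length at a Spearman rho of 0.68, against 0.25 in the Dermo1Cre table and -0.02 in the Sox9Cre table. Control replicates 1 and 3 lay apart from all mutants along that trend, so trend and genotype cannot be told apart in this table. Removing the trend may also remove a difference between genotypes. With that trend removed, the median of the 24 genes was 0.03, and 11 of the 24 were negative. Hist1h2ai then stood at -2.27, Hist1h2ah at -1.06, Hist1h2ad at -1.04 and Hist3h2a at -0.14, while Hist1h2ag stood at 0.98 and Hist1h4i at 0.74. Hist1h1c, Hist1h2bc and Hist1h3c were among those that turned from negative to positive, at 0.14, 0.24 and 0.30. Without control replicate 2, in contrast, the median was -0.43, and without control replicate 3 it was -0.08.

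**Figure D3:**
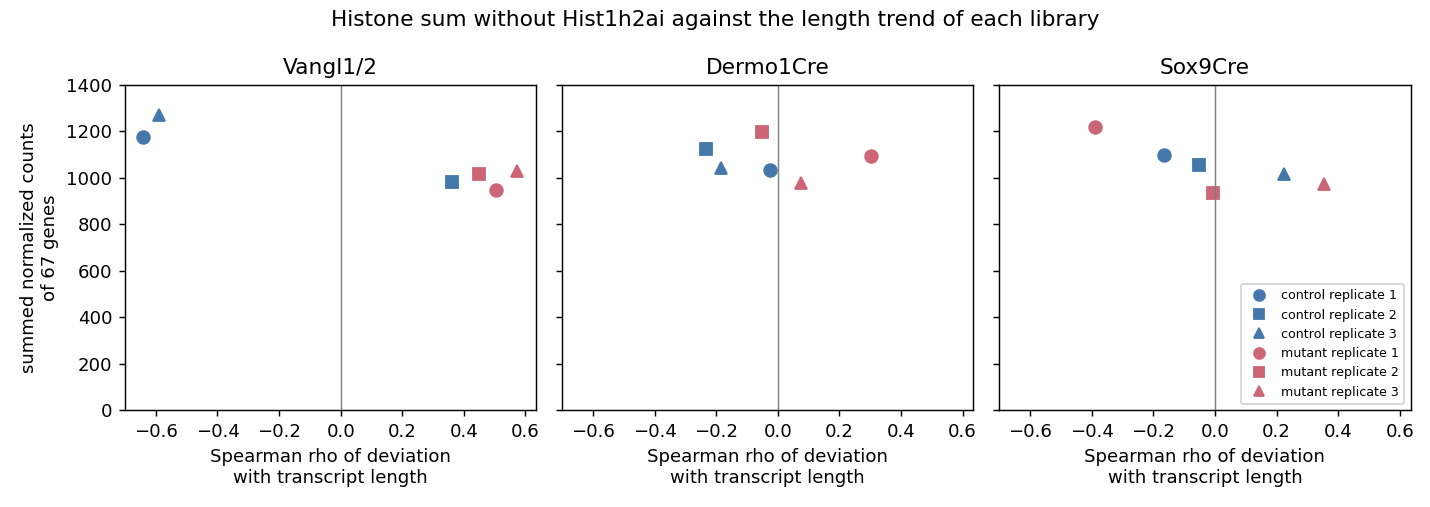
Summed normalized counts of the 67 genes other than Hist1h2ai (y axis) against the Spearman rho, across genes, between each library's deviation from the table mean and transcript length (x axis); points are libraries. In the Vangl1/2 panel control replicates 1 and 3 sit at -0.64 and -0.59 with sums of 1177 and 1270, and control replicate 2 sits with the mutants at 0.36 and 983.

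By kind of model, the 28 genes that end by the stem-loop summed to 322, 261 and 336 in the Vangl1/2 controls and 278, 280 and 279 in the mutants. The 18 whose models run on summed to 559, 471 and 619 against 451, 487 and 505. Both sets overlapped. The 22 without a stem-loop in the model summed to 478, 290 and 376 against 230, 265 and 253, with no overlap, and without Hist1h2ai to 296, 252 and 314 against 219, 248 and 245. In the last comparison, control replicate 2 was within 4 counts of the highest mutant. In both other tables the 3 kinds of model overlapped between groups.

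Where Wnt5a was targeted with Dermo1Cre, no clustered histone gene passed the test. Of the 15 genes that passed, 0 had an adjusted p under 0.05 (limma, Benjamini-Hochberg over all 14277 genes tested, of which 0.014% passed), 0 had an unadjusted p under 0.05 (10.2% of all genes), and the smallest adjusted p was 0.71, for Hist3h2a. edgeR and DESeq2 on the recovered reads also called 0. No gene had all mutants below all controls, where the share over all genes was 7.92%, and none had all mutants above, where it was 7.65%. The median log2 fold change was 0.05, against 0.00 over all genes, and 5 of 15 were negative, against 49.7% of all genes tested. The sum of all 68 genes was 1043, 1134 and 1050 in controls and 1101, 1203 and 983 in mutants, a log2 ratio of 0.03.

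The groups overlapped for each gene that passed in the Dermo1Cre table. Hist3h2a had 127, 164 and 171 normalized counts in controls and 173, 224 and 142 in mutants (log2 fold change 0.21, standard error 0.18, adjusted p = 0.71 by limma). Hist2h2be, an H2B gene, had 110, 107 and 84.2 against 170, 105 and 84.9 (0.20, standard error 0.24), so mutant replicate 1 alone was high. The largest negative fold change was that of Hist1h4b, with 12.0, 14.1 and 13.9 against 15.1, 9.92 and 7.99 (-0.29, standard error 0.35, adjusted p = 0.80 by limma). Hist1h1e (-0.16), Hist1h1c (-0.11) and Hist1h2ac (0.17) were the other extremes. Hist1h2ag had 60.1, 79.3 and 54.5 against 63.5, 79.4 and 60.9, Hist1h4i 80.2, 96.4 and 74.3 against 91.8, 95.3 and 71.9, Hist1h2bc 99.2, 149 and 141 against 118, 134 and 121, and Hist1h3c 46.1, 50.2 and 45.6 against 36.3, 59.5 and 54.9. Hist1h2ak was spread widely within the controls, at 43.1, 5.02 and 19.8, against 15.1, 14.9 and 16.98. Hist1h2ai did not pass the filter here, although its 3 mutants, at 3.97 to 7.06, were below its 3 controls, at 7.93 to 10.02.

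For Sox9Cre, 17 genes passed and 0 had an adjusted p under 0.05 (limma, over 14293 genes, of which 0.0% passed, and the smallest adjusted p of a histone gene was 0.9999). Hist1h1e was the 1 gene with an unadjusted p under 0.05, against 3.9% of all genes. edgeR and DESeq2 on the recovered reads called 0 as well. No gene had all mutants below all controls (4.36% of all genes), and Hist1h1e alone had all mutants above (4.42%). The median log2 fold change was 0.03, against 0.00 over all genes, and 8 of 17 were negative, against 49.3% of all genes tested. The sum of all 68 genes was 1109, 1057 and 1026 in controls and 1229, 945 and 976 in mutants, a log2 ratio of -0.02.

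Hist1h1e, a linker histone gene, had 10.9, 2.99 and 9.98 normalized counts in the Sox9Cre controls and 15.6, 19.1 and 14.4 in the mutants (log2 fold change 1.10, standard error 0.48, unadjusted p = 0.048 and adjusted p = 0.9999 by limma). Its unadjusted p was no longer under 0.05 with DESeq2 or without control replicate 2, mutant replicate 1 or mutant replicate 2. The next largest positive fold change was that of Hist1h2be, an H2B gene, with 8.92, 11.9 and 6.98 against 17.6, 23.1 and 10.3 (0.77, standard error 0.40, adjusted p = 0.9999 by limma). The annotated spans of these neighbours overlap on chromosome 13, on the same strand, so reads of the shared bases cannot be told apart. Hist1h2ac had 29.7, 34.8 and 23.9 against 24.4, 20.1 and 16.4 (-0.52, standard error 0.26). Hist1h3c had 44.6, 41.8 and 34.9 against 36.1, 32.2 and 36.9 (-0.20, standard error 0.19). Hist3h2ba, an H2B gene, had 56.5, 52.8 and 58.9 against 86.9, 40.2 and 33.8, so 1 mutant was above all controls and the other 2 below. Hist1h2ag (65.4, 108 and 65.8 against 117, 68.4 and 73.8), Hist3h2a (188, 160 and 178 against 182, 148 and 160) and Hist1h4i (65.4, 60.7 and 60.9 against 60.5, 59.3 and 63.6) overlapped.

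**Figure D4:**
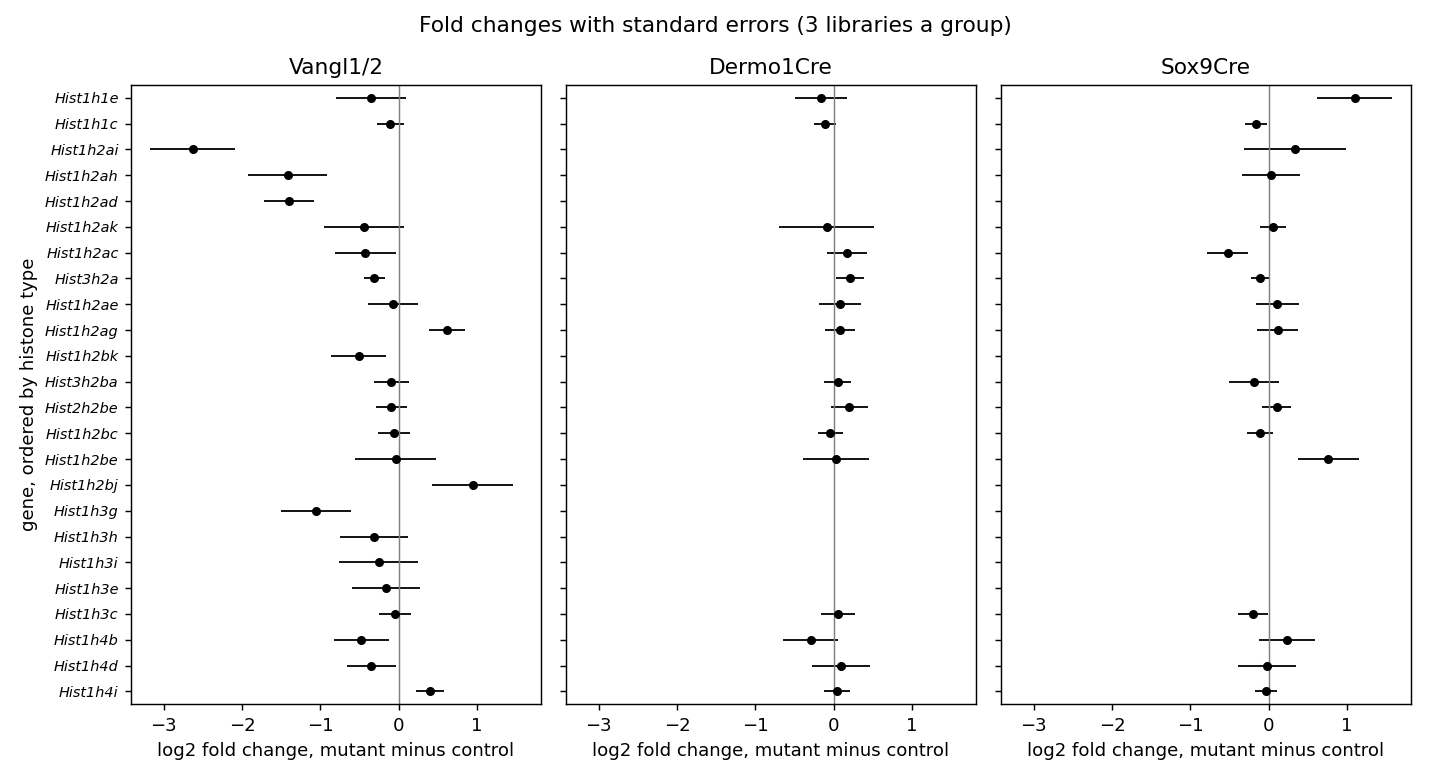
Log2 fold change, mutant minus control, with its standard error (bars, 3 libraries a group) for the 24 genes that passed the filter in the Vangl1/2 table, ordered by histone type; an empty row means that the gene did not pass in that table. Hist1h2ai stands at -2.63 in the Vangl1/2 panel, while the 15 Dermo1Cre values lie between -0.29 and 0.21.

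The H2A genes also differed in their order of level between tables, here per kilobase of model in the controls. The order depends on the GENCODE model lengths, 393 bases for Hist1h2ai and Hist1h2ak and 2146 for Hist3h2a. These may differ from the lengths over which reads were counted. Hist1h2ai had the highest mean in the Vangl1/2 controls (239 ± 196, SD, n = 3), followed by Hist3h2a (113 ± 9.66), a difference within the spread of Hist1h2ai, whose mean was 127 without control replicate 1 against 111 for Hist3h2a. Hist1h2ag led in the Dermo1Cre controls (133 ± 26.8), where Hist1h2ai was at 22.9 ± 2.67. Hist1h2ak and Hist1h2ag led in the Sox9Cre controls at 173 ± 11.1 and 164 ± 49.9, a difference within their spread, and Hist1h2ai was at 19.4 ± 12.49. The Vangl1/2 controls had Hist1h2ak at 42.7. The tables were normalized separately and differ in genotype and, for Sox9Cre, in stage, so these orders were not tested against each other.

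4 sets of genes outside the clusters were examined beside them. Again as a description for Vangl1/2, all 12 replication-independent variants that passed had a negative fold change (median -0.34), against 51.2% of all genes tested. That share takes no account of transcript length, with which the Vangl1/2 fold change rose (Spearman rho 0.68). The values of the 4 sets are given without removal of that trend, and its part in them was not tested. All mutants were below all controls in 3 of them, where the share over all genes was 8.68%. H3f3a, which encodes the variant H3.3, had 19710, 15006 and 22028 normalized counts in controls and 14365, 13536 and 13191 in mutants, with control replicate 2 nearest to the mutants. Cenpa, the centromeric H3 variant, had 3083, 2265 and 3311 against 2236, 2254 and 2033. Of 27 genes for histone mRNA transcription and 3′ processing, 16 were negative and 11 positive (median -0.05), with 2 showing all mutants below all controls and 4 all above (13.6% of all genes), and Npat, the coactivator of histone gene transcription, had a mean of 1466 ± 131 in controls and 1794 ± 69.1 in mutants (SD, n = 3). Of 29 histone chaperone and chromatin assembly genes 17 were negative (median -0.03), and of 42 S phase genes 36 were (median -0.12), with 0 showing all mutants below all controls in either set, and 5 of the 29 and 1 of the 42 showing all mutants above, again beside shares over all genes of 8.68% and 13.6%.

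In the Dermo1Cre and Sox9Cre tables, 0 genes of these 4 sets had an adjusted p under 0.05 in either direction by limma. At an unadjusted p under 0.05, which 10.2% of all genes reached for Dermo1Cre, 2 of 12 variants (H1fx and H2afx, both lower), 2 of 27 transcription and processing genes, 3 of 29 chaperone genes and 1 of 42 S phase genes passed, among them Casp8ap2, needed for histone gene expression, at 0.18 (standard error 0.07). For Sox9Cre, where 3.9% of all genes reached it, 2 of 27 transcription and processing genes passed (Snrpf and Cpsf3, both higher) and 0 of the other 3 sets. Sox9Cre fold changes were positive in 35 of 42 S phase genes, 26 of 29 chaperone genes, 20 of 27 transcription and processing genes and 9 of 12 variants. Of all genes tested there, 49.3% had a negative fold change. All mutants were above all controls in 8, 2, 3 and 0 of these sets (4.42% of all genes) and below in 0 (4.36%). For Dermo1Cre the positive fold changes were 21 of 42, 14 of 29, 15 of 27 and 3 of 12 in the same order, and 49.7% of all genes tested were negative. All mutants were above in 3, 0, 1 and 0 (7.65% of all genes) and below in 3, 1, 2 and 2 (7.92%). The medians of the 4 sets lay between -0.04 and 0.00 in the Dermo1Cre table and between 0.01 and 0.06 in the Sox9Cre table.

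Markers of lung epithelium (6 of 6 passed the filter) and lung mesenchyme (6 of 6) were present in all tables. In the Vangl1/2 table the fold change was positive for all 6 mesenchyme markers (summed normalized counts of 24795 to 51862 in controls and 39182 to 51377 in mutants), among them Foxf1 at 0.01 and Wnt2 at 0.08. It was also positive for all 4 endothelial markers (7389 to 9565 against 9169 to 10033) and all 4 neuron markers (386 to 638 against 528 to 877). These sums overlapped between groups. The fold change was negative for 3 of 6 epithelial, 3 of 3 red cell, 2 of 3 macrophage and 4 of 5 heart muscle markers that passed, beside 51.2% of all genes tested. The length trend of that table was not removed from these values.

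In the Dermo1Cre table all 6 epithelial markers had a negative fold change. An unadjusted p under 0.05 by limma was reached by 5 of them (10.2% of all genes), and 3 had all mutants below all controls (7.92% of all genes). Their sums did not overlap (11042 to 12085 in controls and 10314 to 10486 in mutants). All 4 neuron markers had a positive fold change, each at an unadjusted p under 0.05 by limma and with all mutants above all controls (7.65% of all genes). Their sums were 331 to 597 against 716 to 1534. In the Sox9Cre table all 6 heart muscle markers had a negative fold change (median -2.33), all 6 at an unadjusted p under 0.05 by limma (3.9% of all genes). In 2 of them all mutants were below all controls (4.36% of all genes), and their sums overlapped (4288 to 15673 against 740 to 4636). The sum of 3 macrophage markers did not overlap between groups there (857 to 1040 against 699 to 821). No marker of these lists had an adjusted p under 0.05. Heart muscle markers also varied within groups, at 1103 to 17330 against 623 to 3514 for Dermo1Cre and 1273 to 4229 against 366 to 6405 for Vangl1/2. Hba-a1 and Hba-a2 were listed at 0 in every library, and the other red cell markers summed to 15936 to 42446. The part of these cell types in the histone values was not tested.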

How the data were processed

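Whole embryonic lungs were profiled by bulk RNA-Seq on Illumina HiSeq instruments. The submitters' processing notes name Trim Galore, HISAT2, featureCounts, DESeq2 and mm10, without versions. The authors deposited 1 table per experiment with normalized counts (signal: reads per gene divided by a size factor); its mean, fold change and p-value columns hold their own comparison and were not used. Strand and multi-mapping settings are not given in the sources used here. Dividing by 1 constant per library gave whole reads for 100% of values in all 18 libraries, to within 0.01 reads.

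Genes for which 3 or more of 6 libraries reached 10 normalized counts were tested on log2(value + 1) with limma 3.58.1 (R 4.3.3, mean-variance trend), Benjamini-Hochberg over all genes, threshold 0.05, within each table; counting error and 3 libraries a group limit the precision. The script was tested on simulated data. Alternatives were edgeR 4.0.16 and DESeq2 1.42.0 on recovered reads, TMM scaling, pseudocounts of 0.5 and 5, no filter, a replicate block, removal of the length trend, and leaving out each library. Gene models, stem-loops and shared 50-base stretches came from GENCODE M21 on GRCm38, and upstream sequences from RefSeq.

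The members, gene lists and tests were chosen with earlier results of these data known. Named genes are Hist1h2ai, the 2 genes of each type with the highest mean, the 3 largest falls and rises in each table, the targeted genes, and up to 3 genes of each list by p. Hist1h2bk, Hist1h3g, Hist1h2bl, Hist1h2ae, Hist1h2ak and Hist3h2ba were also named after their values were seen.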

Additional observations from a re-analysis of the deposited data

How the results depend on the processing

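The median log2 fold change of the genes that passed in the Vangl1/2 table, -0.28, became -0.35 with edgeR and -0.35 with DESeq2, and 0.029 with the length trend removed. The cause of these shifts was not tested. Leaving out 1 library gave -0.43 (without control replicate 2) to -0.0795 (without control replicate 3). Counts of Vangl1/2 members past a p threshold were not made, because that contrast entered the choice of the genes. The medians of the Dermo1Cre and Sox9Cre tables ranged from -0.04 to 0.10 and from -0.09 to 0.16 when 1 library was left out, so their sign was not stable. The count of members at an adjusted p under 0.05 was 0 in both tables under every alternative. At an unadjusted p under 0.05 by limma, with no filter, it was 2 of 60 for Dermo1Cre (Hist1h2bm and Hist2h2ab). For Sox9Cre it was 3 of 59 (Hist1h4n, Hist1h3a and Hist1h1e). The share over all genes without the filter is not given here, so nothing is read from these counts. Hist1h2bm and Hist2h2ab were near 0, with Dermo1Cre means of 5.66 and 0.33 normalized counts in controls and 2.00 and 2.33 in mutants. Among tested extremes the sign changed for Hist1h1c in the Dermo1Cre table without mutant replicate 3 (range over single omissions -0.22 to 0.031), Hist2h2be there without mutant replicate 1 (range over single omissions -0.079 to 0.42), and, in the Sox9Cre table, Hist1h2ai without control replicate 2 (range over single omissions -0.31 to 0.76) and Hist3h2ba without mutant replicate 3 (range over single omissions -0.59 to 0.079). Same-numbered controls and mutants deviated together at r between -0.22 and 0.30, and differently numbered ones at r between -0.28 and 0.34. The numbers were therefore not taken as pairs. With the replicate block the medians were -0.28, 0.05 and 0.03, the log2 ratios of the sums -0.28, 0.02 and -0.03 and the counts at an adjusted p under 0.05 were 0, which changed no call except the unadjusted one of Hist1h1e. Recovered reads gave 1, 2 and 0 genes of the whole tables with edgeR at an adjusted p under 0.05, in the order Vangl1/2, Dermo1Cre and Sox9Cre, and 11, 101 and 9 with DESeq2. Without Vangl1/2 control replicate 2, limma called 6183 genes there, against 1 with all libraries.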
